A study of Homo sapiens with 8 samples.

Results

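The insulin-like growth factor (IGF) group described here holds 10 genes: the binding proteins IGFBP1, IGFBP2, IGFBP3, IGFBP4, IGFBP6 and IGFBP7, the ligand IGF2, the receptors IGF1R and IGF2R, and the adaptor IRS1. They are 10 of 13119 gene symbols on the array, and all their probe sets were taken by symbol from the platform's probe table, 18 probe sets in all. The members were selected on measured values: IGFBP3 had been chosen by its control array levels, because it differed between the control cells of the 2 lines by more than most genes. For that reason the difference between control lines is described below and not tested.

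Transcript levels came from 8 Affymetrix 3′ arrays of 2 human cancer cell lines, 2 arrays in each of 4 groups. The groups were HUG1N cells (a gastric cancer line, entered as HuG-1 in the cell line field) given a short hairpin RNA (shRNA) against the endodermal transcription factor GATA6, HUG1N control cells, Caco-2 cells (a colorectal adenocarcinoma line with enterocyte features) given the GATA6 shRNA, and Caco-2 control cells. Infected cells were selected with puromycin. What was given to control cells, the number of hairpins and the origin of replicate arrays (separate cultures or not) are not stated in the labels. The p-values therefore reflect array-to-array spread alone, and that spread may be technical.

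IGF1, IGF2 and insulin signal through the receptor kinase IGF1R and its insulin receptor relative, which pass the signal to AKT and MAPK through adaptors such as IRS1. IGF2R has no kinase and carries IGF2 to lysosomes for breakdown. IGFBP1, IGFBP2, IGFBP3, IGFBP4 and IGFBP6 are secreted proteins that bind IGFs with high affinity and limit or prolong their access to the receptor, whereas IGFBP7 binds IGFs weakly. Proteases that cut the binding proteins release the bound ligand.

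The array values are log2 expression values, with a lowest value of 2.08 shared by all 8 arrays. A value of 4 or less was treated as near that lowest level. Where no array of a group exceeded 4, the difference is given as a bound written "at least", the mean of the brighter group against 4, with no allowance for the spread. A gene is called changed where its adjusted p from limma, over 7696 tested genes, was under 0.05. Array medians over all probe sets ran from 4.73 to 4.98, and arrays of the same group correlated at 0.995 to 0.997 over the 7696 tested genes. The target, GATA6 (1 probe set), had 12.26 and 12.22 in HUG1N shRNA arrays against 12.54 and 12.45 in HUG1N control arrays, a change of -0.25 (SE 0.10, adjusted p = 0.0879). It had 12.23 and 12.02 in Caco-2 shRNA arrays against 12.63 and 12.45 in Caco-2 control arrays, a change of -0.42 (SE 0.10, adjusted p = 0.0224). The arrays of the groups did not overlap in either line, and the 2 changes were not called different (HUG1N minus Caco-2 0.16, adjusted p = 0.396). The Caco-2 call ended, with an adjusted p of 0.0949, when Caco-2 shRNA replicate 2 was dropped, and with 0.112 when control replicate 1 was. It also ended without the filter on low values (0.0562) and with the Caco-2 arrays fitted alone (0.0724). The HUG1N change was called with an intensity trend in the fit (0.0427). All 7 epithelial markers tested as a list were over 4 in every group. Gastric markers were over 4 for 5 of 7 genes in HUG1N shRNA cells, 6 in HUG1N control cells, and 3 in both Caco-2 groups, and enterocyte markers for 3, 4, 7 and 7 of 8 genes in HUG1N shRNA, HUG1N control, Caco-2 shRNA and Caco-2 control cells. CDX1 counts among these in Caco-2 although it read the same 4.53 in all 4 Caco-2 arrays, which may be the lowest value of its probe set.

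The lines differed in the members whose mRNA was over 4. On their brightest probe sets, IGFBP1 and IGFBP3 were over 4 in all HUG1N arrays and in no Caco-2 array, while IGF2, IGFBP2 and IGFBP7 were over 4 in all Caco-2 arrays and in no HUG1N array. IGFBP4, IGFBP6, IGF1R, IGF2R and IRS1 were over 4 in all arrays of both lines. Under the GATA6 shRNA, Caco-2 cells had 21.1-fold more IGFBP7 and 2.78-fold more IGFBP2 mRNA than Caco-2 controls, and HUG1N cells had 1.51-fold more IGF2R and 51.3% of the control level of IGFBP4. IGFBP6 was called lower in both lines, to 57.6% of control in HUG1N and 55.3% in Caco-2.

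**Figure D1:**
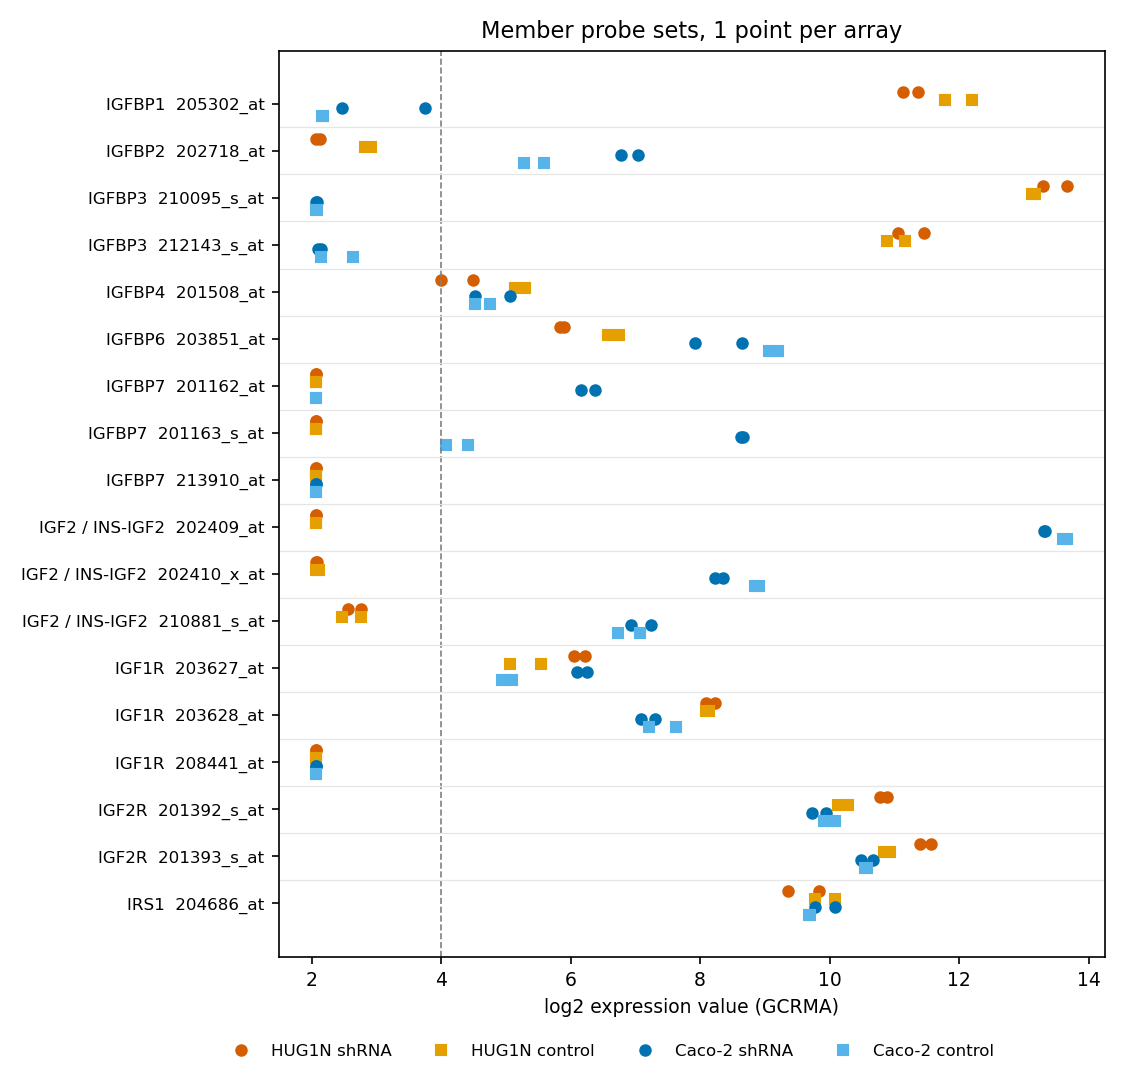
Log2 expression of the 18 probe sets of the IGF genes, 1 point per array, with HUG1N in orange tones, Caco-2 in blue tones, circles for shRNA and squares for control, and a dashed line at 4. IGFBP1 and IGFBP3 are high in all HUG1N arrays and under 4 in all Caco-2 arrays, IGF2 shows the opposite, and IGFBP7 (201163_s_at) lies at 8.64 and 8.66 in Caco-2 shRNA arrays against 4.08 and 4.42 in Caco-2 control arrays.

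IGFBP3, the main carrier of IGFs in blood, was bright in HUG1N and not detected in Caco-2. Its brighter probe set (210095_s_at) read 13.29 and 13.67 in HUG1N shRNA arrays and 13.18 and 13.12 in HUG1N control arrays. The same probe set read 2.08 in both Caco-2 shRNA arrays, and 2.09 and 2.08 in Caco-2 control arrays. IGFBP3 mRNA was thus plainly detected in every HUG1N array and at the lowest level in every Caco-2 array. The second probe set (212143_s_at) read 11.05 and 11.46 in HUG1N shRNA arrays, 11.17 and 10.88 in HUG1N control arrays, and between 2.10 and 2.64 in the 4 Caco-2 arrays. Among control arrays the difference was 11.07, or at least 568-fold, which ranked 13 of 7696 genes by size. APOH at -11.08 stood just above it in that ranking and DKK1 at -11.06 just below.

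The first 250 bases before the start of IGFBP3, GRCh38.p14 chr7:45921273-45921522 on the minus strand in RefSeq, are shown because IGFBP3 has the largest control line difference of the 9 members with a probe set of their own, and because the agent acts on a GATA factor. The window has a GC content of 76.0%, against a median of 58.0% over 35116 RefSeq promoter windows of the same length. Capitals mark a TATATA whose first base lies 30 bases before the start.
IGFBP3: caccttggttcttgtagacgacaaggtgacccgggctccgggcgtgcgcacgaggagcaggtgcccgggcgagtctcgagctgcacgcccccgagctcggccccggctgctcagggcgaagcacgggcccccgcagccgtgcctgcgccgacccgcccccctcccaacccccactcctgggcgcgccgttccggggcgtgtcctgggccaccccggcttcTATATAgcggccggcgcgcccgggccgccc

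Either TATAAA or TATATA, on either strand, occurs in 12.8% of all windows. The GATA hexamers AGATAA and AGATAG, and likewise those that open with T instead (TGATAA and also TGATAG), were searched on both strands. None is in this window or in the other windows of the members, 9 windows of 7 genes in all. At least 1 of these hexamers occurs in 22.3% of all windows. These letter matches are descriptions of the windows, not binding sites.

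The shRNA arrays, which the choice of IGFBP3 did not use, showed the line difference again. They are not an independent test of it, because they come from the same lines in which IGFBP3 was chosen for that difference. The SE also pools the spread of all groups, among them the control arrays used for the choice and arrays at the lowest level. The p-value is therefore given as a description. IGFBP3 was higher in HUG1N shRNA cells than in Caco-2 shRNA cells by 11.40 (SE 0.12, adjusted p = 1.26e-08), or at least 715-fold, and by 9.14 on its second probe set. The shRNA itself was not called to change IGFBP3 in either line. The change in HUG1N was 0.33 (95% interval 0.03 to 0.63, adjusted p = 0.0675), a fold of 1.26 with no overlap between the shRNA and control arrays. On the second probe set these arrays overlapped, with a change of 0.23 (adjusted p = 0.415). In Caco-2 both groups stayed at the lowest level, so no fold is given. Without HUG1N shRNA replicate 1, the lower of its group, the HUG1N change was 0.52. That fit keeps 1 HUG1N shRNA array and takes its spread from the other groups, among them Caco-2 arrays at the lowest level. It cannot decide whether the shRNA changed IGFBP3.

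IGFBP1, a liver-type and decidual binding protein that insulin represses, followed the same split between lines. It read 11.14 and 11.36 in HUG1N shRNA arrays and 12.21 and 11.78 in HUG1N control arrays. In Caco-2 it read 2.47 and 3.76 in shRNA arrays and 2.16 and 2.18 in control arrays, so no Caco-2 array exceeded 4. HUG1N shRNA cells had at least 152-fold more IGFBP1 than Caco-2 shRNA cells (log2 difference 8.14, SE 0.40, adjusted p = 5.15e-06), and the control arrays stood at least 255-fold apart. IGFBP1 is the direct neighbour of IGFBP3 on chromosome 7 in the RefSeq gene order.

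Within HUG1N, both shRNA arrays were below both control arrays for IGFBP1, at 59.8% of the control level. This change of -0.74 (95% interval -1.70 to 0.22) was not called (adjusted p = 0.169). The fit shares its spread with the Caco-2 shRNA arrays, whose SD was 0.91 near the lowest level. Setting values under 4 to 4 removed that spread, and the fall in HUG1N was then called (adjusted p = 0.00716). All Caco-2 arrays then read the same and add no spread, which can make the SE too small. That call therefore adds no support for a fall.

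TNS3, a focal adhesion protein whose gene follows IGFBP3 on chromosome 7, was chosen for comparison after its values were seen. It averaged 11.09 in HUG1N shRNA, 10.63 in HUG1N control, 12.06 in Caco-2 shRNA and 11.21 in Caco-2 control arrays. It was therefore bright in both lines, and the split between lines at IGFBP1 and IGFBP3 did not extend to it.

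The 4 tested genes whose levels followed IGFBP3 most closely over the 4 group means were LCN2, TMC5, AKR1B10 and TRIM31. The measure is the root mean square distance in log2 units after centring each gene on its mean over the groups. The distances were 0.404 for LCN2, 0.452 for TMC5, 0.459 for AKR1B10 and 0.587 for TRIM31. LCN2, an iron-siderophore binding protein, averaged 14.41 and 14.51 in HUG1N shRNA and HUG1N control cells and 2.40 and 3.34 in Caco-2 shRNA and Caco-2 control cells. IGFBP1 lay farther from IGFBP3, at 1.24, while the closest pairs among the members were IGFBP4 with IRS1 at 0.228 and IGF1R with IGF2R at 0.238. These distances rest on 4 points, 1 per group, and carry no test.

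IGFBP7, a secreted protein of basement membranes and vessels that binds IGFs weakly, made the largest change of any member under the shRNA. On 201163_s_at it read 8.64 and 8.66 in Caco-2 shRNA arrays against 4.08 and 4.42 in Caco-2 control arrays, and 2.08 in all 4 HUG1N arrays. The change in Caco-2 was 4.40 (SE 0.11, adjusted p = 3.64e-06), or 21.1-fold. A second probe set (201162_at) read 6.17 and 6.38 in Caco-2 shRNA arrays against 2.08 in both control arrays, a rise of at least 4.84-fold. The third (213910_at) was at the lowest value in all 8 arrays, and the mean over the 3 rose by 2.87.

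The rise of IGFBP7 differed between lines by -4.40 (HUG1N effect minus Caco-2 effect, SE 0.16, adjusted p = 2.68e-05), HUG1N cells staying at the lowest value. HUG1N shRNA cells lay at least 25.1-fold below Caco-2 shRNA cells. Because IGFBP7 is also made by stromal and endothelial cells, markers of these cells were read in the same arrays. Of 10 fibroblast markers, 2 exceeded 4 in Caco-2 shRNA cells, COL1A1 at a mean of 4.34 and LUM at 7.53, against COL1A1 alone at 4.16 in Caco-2 control cells, where LUM averaged 3.43. COL1A2, COL3A1, DCN, FAP, THY1, PDGFRA and POSTN were within 0.04 of the lowest value in every group mean. The summed linear signal of the 10 markers ran from 229.0 to 252.6 in Caco-2 shRNA arrays against 62.56 to 66.16 in Caco-2 control arrays. LUM made most of that rise, since COL1A1 changed little and PDGFRB averaged 2.47 in Caco-2 shRNA against 2.53 in Caco-2 control cells. Of 4 endothelial markers only PECAM1 exceeded 4, at 4.31 in Caco-2 shRNA cells against 5.29 in Caco-2 control cells. The arrays read cultured cell lines in bulk, and a change in cell mix and a change in RNA per cell cannot be told apart from these values.

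IGFBP2, a binding protein that prefers IGF2, was also higher in Caco-2 shRNA cells. It read 7.05 and 6.78 in Caco-2 shRNA arrays against 5.28 and 5.60 in Caco-2 control arrays, a change of 1.47 (SE 0.13, adjusted p = 5.32e-04) or 2.78-fold. In HUG1N all arrays were under 4, at 2.08 and 2.13 with the shRNA and 2.92 and 2.83 in controls. The fit called a fall there (adjusted p = 0.00454), but it lies wholly below the level taken as detected and vanished when values under 4 were set to 4. The effects of the shRNA on IGFBP2 differed between lines by -2.25 (SE 0.19, adjusted p = 4.50e-04), part of which is that fall, and by -1.47 with values under 4 set to 4. Its neighbour on chromosome 2, IGFBP5, exceeded 4 in 1 array, at 4.03 in HUG1N control replicate 2, and was not tested.

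IGFBP6, which binds IGF2 with higher affinity than IGF1, was lower with the shRNA in both lines. It read 5.83 and 5.91 in HUG1N shRNA arrays against 6.58 and 6.74 in HUG1N control arrays, and 7.92 and 8.64 in Caco-2 shRNA arrays against 9.20 and 9.07 in Caco-2 control arrays. The groups did not overlap in either line. The change was -0.80 in HUG1N (SE 0.22, adjusted p = 0.0262), to 57.6% of the control level, and -0.85 in Caco-2 (SE 0.22, adjusted p = 0.0258), to 55.3%. The difference between the 2 effects was 0.06 (95% interval -0.70 to 0.82, adjusted p = 0.893). Neither call was firm: leaving out HUG1N control replicate 1 or 2, or HUG1N shRNA replicate 1 or 2, ended the HUG1N call (adjusted p = 0.0704, 0.115, 0.103 and 0.08), and leaving out Caco-2 control replicate 1 or 2 ended the Caco-2 call (0.118 and 0.0834). Without Caco-2 shRNA replicate 1 the Caco-2 change was -0.50. The line difference held in the shRNA arrays, where HUG1N had 18.8% of the Caco-2 level (-2.41, SE 0.22, adjusted p = 9.21e-05).

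IGFBP6 is shown with its promoter window because it was the member called lower in both lines among those over 4. The window is GRCh38.p14 chr12:53097417-53097666 on the plus strand, with a GC content of 61.2%. Capitals mark a GTAAACA, the core letters of the forkhead (FOXO) motif, whose first base lies 186 bases before the start.
IGFBP6: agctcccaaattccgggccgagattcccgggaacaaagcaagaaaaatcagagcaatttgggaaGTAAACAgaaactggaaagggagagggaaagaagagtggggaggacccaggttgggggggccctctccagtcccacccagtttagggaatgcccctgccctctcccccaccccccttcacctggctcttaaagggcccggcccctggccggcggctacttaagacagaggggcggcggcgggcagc

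The string GTAAACA occurs on either strand in 2.98% of all windows.

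IGFBP4, which the protease PAPPA cuts to free its IGF, was low in all groups. It read 4.50 and 4.001 in HUG1N shRNA arrays against 5.29 and 5.14 in HUG1N control arrays, and 4.53 and 5.07 in Caco-2 shRNA arrays against 4.53 and 4.76 in Caco-2 control arrays. The shRNA groups overlapped the control groups in Caco-2 and not in HUG1N. The fall in HUG1N was called (-0.96, SE 0.23, adjusted p = 0.0152), to 51.3% of control, and the Caco-2 change was 0.15 (95% interval -0.41 to 0.71, adjusted p = 0.654). Leaving out HUG1N control replicate 1 (adjusted p = 0.0763) or HUG1N shRNA replicate 2 (0.0715) ended the HUG1N call. The difference between lines in the effect was -1.12 (SE 0.33, adjusted p = 0.0335). It was not called when any array other than Caco-2 shRNA replicate 1 or HUG1N shRNA replicate 1 was left out (adjusted p from 0.0625 to 0.104).

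IGF2, a fetal growth factor and imprinted gene, could be read only through 3 probe sets that the probe table assigns to both IGF2 and the read-through gene INS-IGF2. They were therefore fitted with the other probe sets and not as a gene, and they fall outside the rule for named genes. On 202409_at the signal was 2.08 in all 4 HUG1N arrays, 13.31 and 13.33 in Caco-2 shRNA arrays and 13.67 and 13.61 in Caco-2 control arrays. HUG1N shRNA cells had at least 640-fold less than Caco-2 shRNA cells (-11.25, adjusted p = 6.33e-09), and HUG1N control cells at least 799-fold less than Caco-2 control cells. IGF2 signal was thus bright in every Caco-2 array and at the lowest value in every HUG1N array on this probe set.

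In Caco-2, 2 of the 3 IGF2 probe sets were called lower with the shRNA, against 17.3% of all 12758 probe sets tested called lower there. The change on 202409_at was -0.32 (SE 0.06, adjusted p = 0.0111), to 80.2% of control. On 202410_x_at the arrays read 8.36 and 8.22 with the shRNA against 8.90 and 8.85 in controls, a change of -0.59 (SE 0.07, adjusted p = 0.00218). The third, 210881_s_at, read 7.24 and 6.94 with the shRNA against 6.74 and 7.07 in controls, a change of 0.19 that was not called (SE 0.18, adjusted p = 0.461). The call on 202409_at was lost without Caco-2 control replicate 1 (adjusted p = 0.0627). The other ligands IGF1 and INS (insulin) were at 2.08 in all 8 arrays.

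The receptors were detected in every array, with probe sets that moved together for IGF2R and not for IGF1R. IGF2R (201393_s_at) read 11.40 and 11.57 in HUG1N shRNA arrays against 10.84 and 10.94 in HUG1N control arrays, and 10.48 and 10.66 in Caco-2 shRNA arrays against 10.58 and 10.55 in Caco-2 control arrays. Its rise in HUG1N was 0.60 (SE 0.10, adjusted p = 0.00336), or 1.51-fold, and its second probe set rose by 0.63 (adjusted p = 0.00574). In Caco-2 the change was 0.01 (95% interval -0.22 to 0.25, adjusted p = 0.950). The effects differed between lines by 0.58 (SE 0.14, adjusted p = 0.0153), which was not called without Caco-2 control replicate 1 (0.57, adjusted p = 0.0521). With the shRNA, HUG1N had 1.88-fold more IGF2R than Caco-2 (adjusted p = 1.74e-04).

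The IGF2R window, GRCh38.p14 chr6:159968832-159969081 on the plus strand, is shown because IGF2R was the only member called higher in HUG1N in the gene-level fit. Its GC content is 79.2%. Capitals mark 3 copies of CACGTG, the E-box letters, whose first bases lie 132, 74 and 28 bases before the start.
IGF2R: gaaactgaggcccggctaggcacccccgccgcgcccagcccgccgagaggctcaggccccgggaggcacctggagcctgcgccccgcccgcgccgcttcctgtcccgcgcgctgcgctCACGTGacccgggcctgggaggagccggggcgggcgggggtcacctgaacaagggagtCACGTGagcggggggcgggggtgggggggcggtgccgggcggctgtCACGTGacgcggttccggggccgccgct

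The string CACGTG occurs in 6.34% of all windows. The window also holds 6 copies of GGGCGG counted on both strands, a letter string found in 42.6% of all windows.

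IGF1R, the signalling receptor, had 3 probe sets. The brightest (203628_at) read 8.09 and 8.23 in HUG1N shRNA arrays, 8.14 and 8.09 in HUG1N control arrays, 7.30 and 7.08 in Caco-2 shRNA arrays and 7.22 and 7.63 in Caco-2 control arrays. On it the shRNA change was 0.04 in HUG1N (95% interval -0.32 to 0.41, adjusted p = 0.848) and -0.23 in Caco-2 (95% interval -0.60 to 0.14, adjusted p = 0.280), and no call was made. On 203627_at the arrays read 6.05 and 6.23 in HUG1N shRNA against 5.54 and 5.06 in HUG1N control, and 6.25 and 6.09 in Caco-2 shRNA against 5.09 and 4.94 in Caco-2 control.

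That second probe set was called higher in both lines, 1.79-fold in HUG1N (0.84, SE 0.17, adjusted p = 0.00879) and 2.23-fold in Caco-2 (1.16, SE 0.17, adjusted p = 0.00363). The 2 probe sets thus gave different answers for the same gene, and the direction of IGF1R in Caco-2 turned with the choice: the mean over its probe sets was 0.31 higher (adjusted p = 0.0382). The third (208441_at) was at the lowest value in all arrays. The line difference in shRNA cells was called on the brightest probe set (0.97, SE 0.15, adjusted p = 0.00119) and not on 203627_at (-0.03, adjusted p = 0.881), and was 0.31 by the mean of the probe sets.

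IRS1, the docking protein that links IGF1R and the insulin receptor to PI3K, was bright in all groups. It read 9.36 and 9.84 in HUG1N shRNA arrays against 10.09 and 9.77 in HUG1N control arrays, and 10.08 and 9.78 in Caco-2 shRNA arrays against 9.69 and 9.69 in Caco-2 control arrays. The change was -0.33 in HUG1N (95% interval -0.80 to 0.14, adjusted p = 0.206) and 0.24 in Caco-2 (95% interval -0.23 to 0.71, adjusted p = 0.381). Neither was called, and the arrays overlapped in HUG1N.

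**Figure D2:**
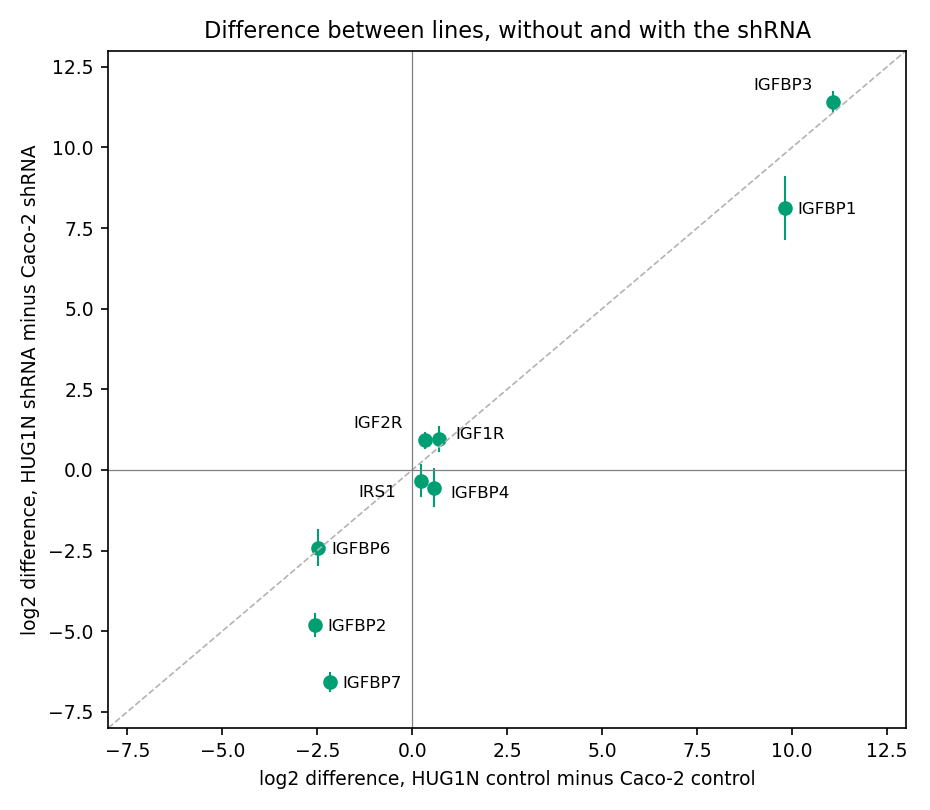
Log2 difference between HUG1N and Caco-2 for the 9 IGF genes with a probe set of their own, in control arrays on the x axis (no test) and in shRNA arrays on the y axis with 95% intervals. IGFBP3 lies at 11.07 in control arrays and 11.40 in shRNA arrays near the dashed line of equal difference. IGFBP7, IGFBP2, IGFBP1 and IGFBP4, in that order, lie farthest below it. Fitted values are plotted, although 1 line is under 4 for IGFBP1, IGFBP2, IGFBP3 and IGFBP7, whose folds are bounds.

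Over the 9 genes with a probe set of their own, all of which passed the filter on low values, 7 were called different between HUG1N shRNA and Caco-2 shRNA cells. The share of all tested genes called in that comparison was 77.0%, with 36.2% higher and 40.9% lower, so 7 of 9 is near what the array as a whole shows. IGF1R, IGF2R, IGFBP1 and IGFBP3 were higher in HUG1N, and IGFBP2, IGFBP6 and IGFBP7 lower. In control arrays 5 of the 9 were at least 2-fold apart, against 46.2% of all tested genes.

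In HUG1N the shRNA comparison called 4 of 9 members, 1 higher (IGF2R) and 3 lower (IGFBP2, IGFBP4 and IGFBP6), against 48.7% of all tested genes (24.7% higher and 23.9% lower). Of these, IGFBP2 lay under 4 in all HUG1N arrays, so its call is not a fall of a detected transcript. In Caco-2 it called 3 of 9, IGFBP2 and IGFBP7 higher and IGFBP6 lower, against 38.7% (19.5% higher and 19.2% lower). The difference between the effects was called for 4 of 9 members (IGF2R, IGFBP2, IGFBP4 and IGFBP7), against 44.9% (22.2% higher and 22.7% lower). For IGFBP2 and IGFBP7 no HUG1N array exceeded 4. On the level of probe sets it was called for 8 of 16, against 42.4%. These shares lie near the background, so the number of members called is not a result about the members. Over all tested genes the median change was 0.00 in both lines.

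**Figure D3:**
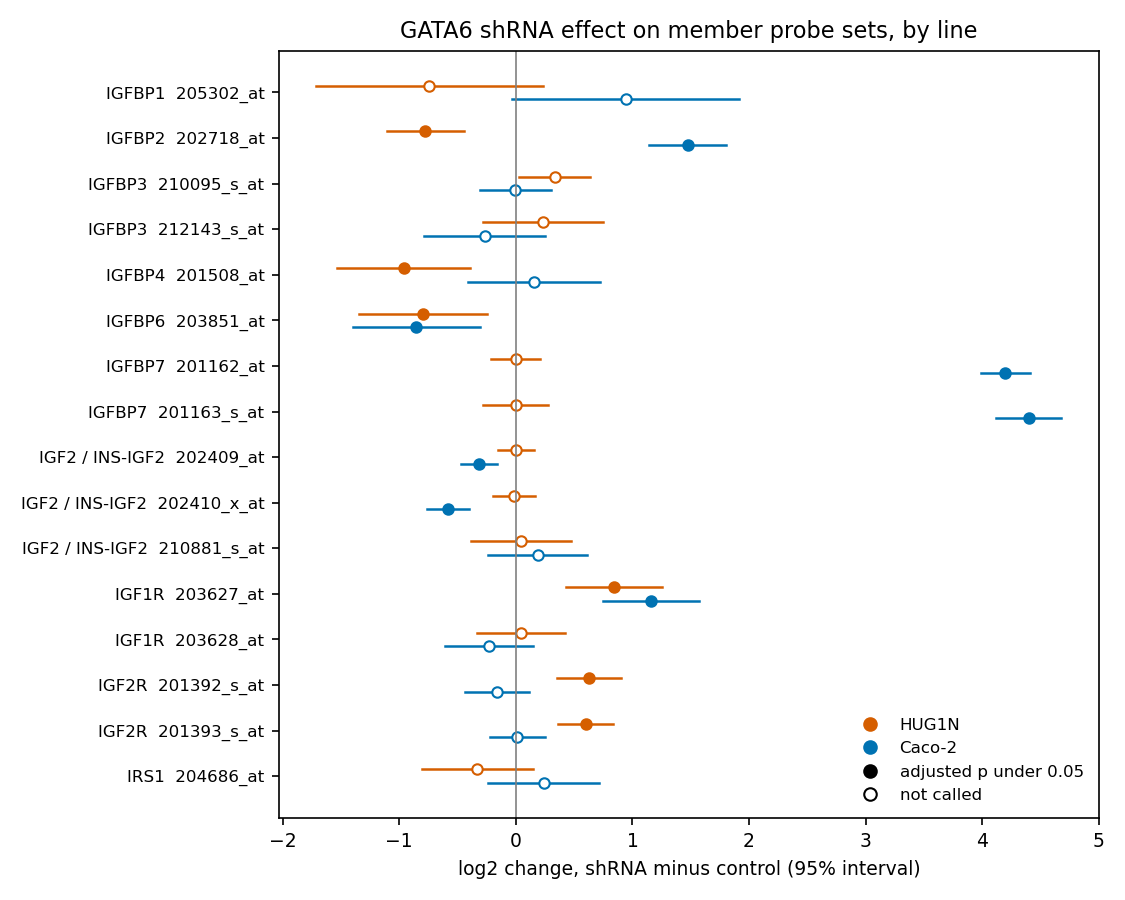
Change under the GATA6 shRNA, in log2 units with 95% intervals, for the 16 tested probe sets of the IGF genes, with HUG1N in orange and Caco-2 in blue, and filled points for an adjusted p under 0.05 in the probe set fit. Fitted values are plotted, also where a group lies under 4. IGFBP7 (201163_s_at) rose by 4.40 in Caco-2, its other plotted probe set having both control arrays at the lowest value, and IGF2R rose by 0.63 and 0.60 in HUG1N.

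Array quality values moved with the groups. The gap between the 3′ and 5′ probe sets of ACTB, which grows as RNA shortens, was 3.73 ± 0.06 in HUG1N shRNA cells and 2.51 ± 0.23 in HUG1N control cells, against 1.55 ± 0.13 in Caco-2 shRNA cells and 1.92 ± 0.02 in Caco-2 control cells (SD, n = 2 arrays each). The hybridisation controls, spiked before the array, averaged 11.34 ± 0.09 in HUG1N shRNA and 12.90 ± 0.09 in HUG1N control cells, and 12.53 ± 0.07 and 12.64 ± 0.12 in Caco-2 shRNA and Caco-2 control cells (SD, n = 2 each). These values move with the HUG1N calls and with the comparison of the lines. The HUG1N calls are those for IGF2R, IGFBP4, IGFBP6, the second IGF1R probe set, IGFBP2 (under 4 in HUG1N) and the pathway lists below. In Caco-2 the ACTB gap moved the other way, without overlap of the arrays. Their part in the results was not tested.

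The rest of the pathway was read from lists of genes that surround the members. Among 20 other IGF and insulin genes, 10 were tested. In HUG1N 3 were called (30.0%, against 48.7% of all tested genes), all lower: INSR (the insulin receptor, -0.62, SE 0.12, adjusted p = 0.00615), the mRNA-binding protein IGF2BP2 (-0.59) and the adaptor GRB10 (-0.40). In Caco-2 5 of the 10 were called (against 38.7% of all tested genes), with GRB10 lowest at -1.42 (SE 0.08, adjusted p = 6.48e-05), GRB14 at -0.63, and IRS2, the sister adaptor of IRS1, highest at 0.84 (SE 0.09, adjusted p = 7.42e-04), with IGF2BP3 at 0.43 and NEDD4. GRB10, an inhibitory adaptor that binds IGF1R and the insulin receptor, thus fell in both lines. It read 10.10 and 9.98 in HUG1N shRNA arrays against 10.44 and 10.42 in controls, and 8.75 and 8.84 in Caco-2 shRNA arrays against 10.17 and 10.25 in controls. By the mean of its probe sets GRB10 fell by 1.503 in HUG1N.

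Among 25 proteases that cut binding proteins and their regulators, 14 were tested. Of these 4 were called higher and 4 lower in HUG1N (57.1%, against 48.7% of all tested genes), and 5 higher and 2 lower in Caco-2 (7 of 14, against 38.7%). MMP1, a collagenase, fell in both lines, with 8.78 and 8.53 in HUG1N shRNA arrays against 12.92 and 12.63 in controls (-4.12, SE 0.20, adjusted p = 6.58e-05), and 6.54 and 5.99 in Caco-2 shRNA arrays against 8.31 and 8.40 in controls (-2.09, SE 0.20, adjusted p = 6.16e-04). The trypsin PRSS3 fell by 2.10 in HUG1N and 1.24 in Caco-2. In HUG1N the metalloprotease ADAM28 rose by 1.63 and the inhibitor TIMP1 fell by 1.63, while ADAM9 rose by 0.38 in HUG1N and 0.68 in Caco-2. CTSB, a lysosomal protease, rose by 0.61 in Caco-2, where another of its probe sets moved by -0.24 and the mean of its probe sets by 0.25. Without Caco-2 control replicate 1 or 2, 2 rises were called in Caco-2. Without Caco-2 shRNA replicate 2 there were 4 falls there, and without HUG1N control replicate 2 or HUG1N shRNA replicate 2 there were 2 rises in HUG1N, where ADAM9 was no longer called (adjusted p = 0.100 and 0.0952). PAPPA and PAPPA2, which cut IGFBP4 and IGFBP5, were not over 4 in enough arrays to be tested.

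Downstream of the receptors, 21 of 29 genes of the PI3K, AKT and mTOR arm were tested. In HUG1N 8 were called higher and 9 lower (81.0%, against 48.7% of all tested genes), and in Caco-2 7 higher and 2 lower (42.9%, against 38.7%). In HUG1N the largest rises were PIK3R3, a regulatory subunit of PI3K (2.66, SE 0.17, adjusted p = 1.63e-04), and PHLPP2, an AKT phosphatase (2.34, SE 0.11, adjusted p = 5.37e-05). PHLPP2 read 6.52 and 6.26 in HUG1N shRNA arrays against 3.98 and 4.13 in HUG1N control arrays. The size of its rise thus rests on controls close to 4. EIF4EBP1, the translation repressor that mTOR phosphorylates, fell by 1.72 in HUG1N and 0.45 in Caco-2. PIK3R1, another regulatory subunit, rose by 0.76 in HUG1N and fell by 1.16 in Caco-2, and the lipid phosphatase INPPL1 rose by 0.67 in Caco-2. FOXO1 rose by 0.61 in Caco-2. MTOR was called higher in HUG1N, with 8.57 and 8.46 in shRNA arrays against 7.84 and 7.89 in control arrays. All 4 Caco-2 arrays also read 7.89 on this probe set, the level of HUG1N control replicate 2. Readings this alike may lie near the lower limit of the probe set, so no fold is given. By the mean of all probe sets PIK3R3 rose by 1.38 and PHLPP2 by 1.17 in HUG1N. Without HUG1N control replicate 1 there were 5 falls in HUG1N. In Caco-2 there were 4 rises without Caco-2 control replicate 1 or Caco-2 shRNA replicate 2, 3 without Caco-2 control replicate 2, and 4 falls without either HUG1N shRNA array.

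All 14 genes of the SHC, RAS and MAPK arm with a probe set were tested, of 19 listed. In HUG1N 1 was called higher and 6 lower (7 of 14, against 48.7% of all tested genes), and in Caco-2 4 higher and 2 lower (42.9%, against 38.7%), shares near those over all genes. The kinases ARAF and RPS6KA1 fell in both lines, by 0.82 and 0.79 in HUG1N and by 0.53 and 0.39 in Caco-2. MAP2K1 and MAPK3 moved in opposite directions, falling by 0.66 and 0.51 in HUG1N and rising by 0.32 and 0.61 in Caco-2. The adaptor SHC1 rose by 0.67 in Caco-2, and MAP2K2 fell by 0.84 in HUG1N. In Caco-2 there were 2 rises without either control array, and the falls numbered 0 without Caco-2 control replicate 1 and 1 without Caco-2 control replicate 2 or Caco-2 shRNA replicate 1. MAP2K1 lost its Caco-2 call in 3 of these refits, with adjusted p from 0.0931 to 0.0971 without Caco-2 control replicate 1 or 2 or Caco-2 shRNA replicate 2. ARAF lost its Caco-2 call without Caco-2 control replicate 1 or 2 or Caco-2 shRNA replicate 1 (adjusted p from 0.0545 to 0.0676), and RPS6KA1 without Caco-2 control replicate 1 (0.0509).

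Of 13 other proteins with an IGFBP-type amino-terminal domain, 6 were tested. CCN2 rose in both lines, with 6.03 and 5.31 in HUG1N shRNA arrays against 2.08 and 2.52 in controls (at least 3.18-fold, adjusted p = 2.39e-04), and 9.87 and 9.75 in Caco-2 shRNA arrays against 8.73 and 8.81 in controls (1.04, SE 0.25, adjusted p = 0.0205). CCN1 rose in Caco-2 (2.63, SE 0.15, adjusted p = 8.84e-05), with 9.49 and 9.82 against 6.96 and 7.09. Of the 6, 2 were called in HUG1N and 3 in Caco-2, each of them higher, against 24.7% and 19.5% of all tested genes called higher in HUG1N and in Caco-2. CCN3 was called higher in HUG1N by 1.26 (0.68 by the mean of its probe sets) and CRIM1 higher in Caco-2 by 0.84. CCN3 was no longer called when HUG1N control replicate 1 (adjusted p = 0.103) or HUG1N shRNA replicate 1 (0.0520) was left out, nor was CCN2 in Caco-2 without any 1 of the 4 Caco-2 arrays (0.0712 to 0.0968). A single fall was called in HUG1N without HUG1N shRNA replicate 2 and in Caco-2 without Caco-2 shRNA replicate 2.

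Among 15 FOXO target genes, which insulin and IGF signalling represses, 12 were tested, with 2 called higher and 4 lower in HUG1N (6 of 12, against 48.7% of all tested genes) and 6 higher and 1 lower in Caco-2 (58.3%, against 38.7%). In Caco-2 CCNG2 and KLF6 each rose by 1.16 and TXNIP rose by 1.10, and IRS2, also on this list, rose by 0.84. In HUG1N SESN1 rose by 1.32 and GADD45A fell by 1.02. BCL6 and INSR also fell in HUG1N, by 0.68 and 0.62, as did KLF6 by 0.53, which was not called without HUG1N control replicate 1 (adjusted p = 0.0782) or HUG1N shRNA replicate 2 (0.0669). Without HUG1N control replicate 2 or HUG1N shRNA replicate 2 there was 1 rise in HUG1N. In Caco-2 there were 3 falls without Caco-2 shRNA replicate 1 and 0 when any of the other 7 arrays was left out.

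Of 11 IGFBP3 partners and cell surface proteins, 9 were tested, with 5 called higher and 1 lower in HUG1N (66.7%, against 48.7% of all tested genes) and 2 higher and 3 lower in Caco-2 (55.6%, against 38.7%). TGFBR2, the type II TGF-β receptor, rose in both lines, by 0.99 in HUG1N and 0.93 in Caco-2. CAV1, the caveolar coat protein, rose by 0.90 in HUG1N and fell by 0.97 in Caco-2. The extracellular protein FN1 fell by 1.44 in Caco-2, where the iron carrier TF fell to a level under 4 in both shRNA arrays, and in HUG1N the nuclear receptor RXRA rose by 0.75 (0.31 by the mean of its probe sets) and the chaperone HSPA5 by 0.65. The single fall in HUG1N was not called without HUG1N control replicate 1 or HUG1N shRNA replicate 1. The list medians in HUG1N and Caco-2 were -0.08 and 0.04 for the other IGF and insulin genes, -0.02 and 0.03 for the proteases, -0.11 and 0.00 for the PI3K arm, -0.18 and 0.16 for the MAPK arm, -0.02 and 0.42 for the domain relatives, 0.03 and 0.14 for FOXO targets, and 0.33 and -0.14 for the IGFBP3 partners.

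**Figure D4:**
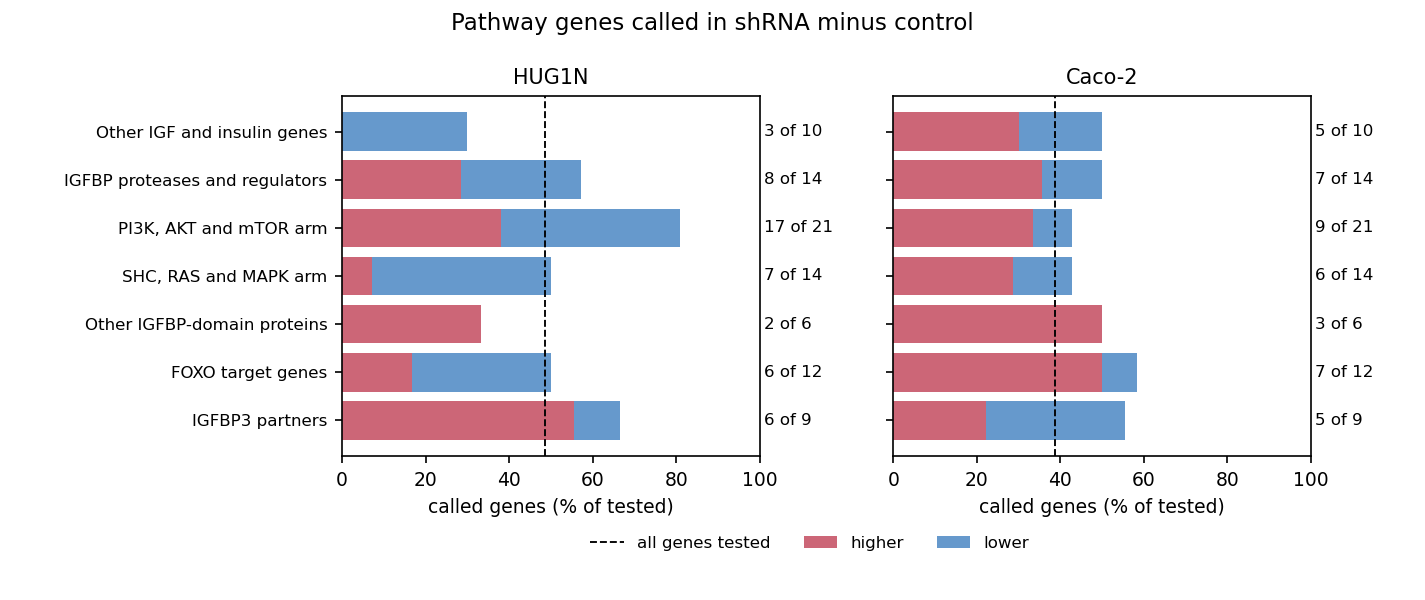
Share of the tested genes of 7 pathway lists called higher (red) or lower (blue) in shRNA against control cells, in percent, for HUG1N on the left and Caco-2 on the right, with the share over all tested genes dashed at 48.7% and 38.7%. The PI3K, AKT and mTOR arm reached 81.0% in HUG1N, and the other IGF and insulin genes 30.0%.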

How the data were processed

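Biotin-labelled total RNA of 8 samples was hybridised to Affymetrix arrays. Deposited expression is on a log2 scale, with 1 value for each probe set in an array. Per the submitters' processing notes the authors used GCRMA, whose version is not given in the sources used here. No further scaling was applied. Of 22277 probe sets, 19070 had 1 symbol in the platform table, 1043 several and 2164 none. The brightest probe set stood for each of 11963 genes, and 7696 with log2 over 4 in at least 2 arrays were tested. The 12758 probe sets passing the same filter were also fitted separately. Tests used limma 3.58.1 in R 4.3.3 on 4 group means over all 8 arrays, with 4 residual degrees of freedom and Benjamini-Hochberg adjustment. For genes at the lowest value in some groups, the shared spread can make SE and p too small elsewhere. The fit was tested on simulated data. The members and lists were chosen with earlier results of these data known. Genes named by rule were the members, GATA6, up to 4 genes per list and line with the smallest p, and the 4 genes nearest IGFBP3. Others, such as TNS3, IGFBP5, APOH, DKK1 and NEDD4, are named outside that rule, as are the cell markers. Promoters are RefSeq windows of GRCh38.p14. Alternatives covered the filter, normalization, variance trend, choice of probe set, a floor at 4, a 2-fold minimum, each line alone, the replicate number as a block and leaving out each array. The number of arrays limits the precision.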

Additional observations from a re-analysis of the deposited data

Results flagged for a closer look

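The effect of the shRNA differed between the lines, by the interaction test in limma, for 8 of the 16 tested probe sets of the IGF genes, and 42.4% of all tested probe sets were called in that comparison. Differences are the HUG1N effect minus the Caco-2 effect in log2 units. The difference was -4.40 for IGFBP7 on 201163_s_at, which was at the lowest value in all 4 HUG1N arrays. On 201162_at its fitted value was -4.20, but this probe set exceeded 4 in the Caco-2 shRNA arrays alone, and with values under 4 set to 4 the difference was -2.27. It was -2.25 for IGFBP2, or -1.47 with values under 4 set to 4, since both HUG1N groups lie under 4, and -1.12 for IGFBP4. It was 0.58 and 0.79 for the 2 IGF2R probe sets (201393_s_at and 201392_s_at), which were higher with the shRNA in HUG1N. It was 0.32 and 0.57 for the 2 IGF2 probe sets shared with INS-IGF2 (202409_at and 202410_x_at), which were lower with the shRNA in Caco-2 and at or near the lowest value in HUG1N. The first of these was not called in 12 of its 16 alternatives. For the IGFBP7, IGFBP2 and IGF2 probe sets no HUG1N array exceeded 4, so a HUG1N response could not be read. There the difference mainly reflects the Caco-2 change. The groups of 2 arrays were too small for a search for outlying arrays.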

How the results depend on the processing

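Of 1140 combinations of an IGF gene or probe set, a comparison and an alternative, 1049 kept their direction and side of the threshold, 51 lost a call, 18 gained a call and 22 changed sign. The calls for IGFBP7 and IGFBP2 in Caco-2 held under all alternatives, as did those for IGFBP1, IGFBP2, IGFBP3, IGFBP6 and IGFBP7 between the shRNA cells of the 2 lines. Between the lines this adds no support for IGFBP3, which was chosen for that difference. Nor does it for IGFBP1, IGFBP2 and IGFBP7, which like IGFBP3 passed the filter on low values through 1 line only. Of 58 named pathway gene and line pairs with a call, 47 kept it under all alternatives other than the 2-fold minimum. Leaving out an array leaves its group with 1 array, assumed to vary like the others. The cause of the changes below was not tested. Fitting every probe set separately gave 5947 calls in HUG1N, 4483 in Caco-2, 5414 for the difference and 9525 between shRNA cells, from more features. A 2-fold minimum left 903, 742, 1404 and 3216. Calls over all genes in Caco-2 ran from 1895 to 2974 when 1 array was left out, lowest without Caco-2 control replicate 2 and 1985 without Caco-2 control replicate 1. Members called in HUG1N were 2 without a filter, 0 with a 2-fold minimum and 2 to 5 with 1 array left out, and for the difference 2 to 5. The untested IGFBP3 difference between control lines was 9.85 for the mean of its probe sets and 9.15 with values under 4 set to 4. The replicate numbers did not pair the arrays (correlations of deviations from -0.063 to 0.066). With the replicate number as a block, 3604, 2732, 3240 and 5873 genes were called, and 4, 3, 3 and 7 members, the IGFBP4 difference losing its call (adjusted p = 0.0555) and the GATA6 change in HUG1N gaining one (0.0468). Values that changed sign were all without a call in the main setting. By the mean of its probe sets, IGF1R was 0.31 in Caco-2 and -0.014 for the difference, and IGF2R was -0.076 in Caco-2. By median centring, IGF2 (202410_x_at) in HUG1N was 0.015 and IGF1R (203627_at) between shRNA cells was 0.022, which was 0.084 by quantile normalization. With 1 array left out, IGF1R in HUG1N ran from -0.026 to 0.11. In Caco-2 IGF2R ran from -0.077 to 0.10, IGFBP3 from -0.0099 to 0.00048 and IGFBP4 from -0.12 to 0.42. The IGFBP6 difference ran from -0.30 to 0.42. IGF2 in HUG1N ran from -0.038 to 0.0050 on 202410_x_at and from -0.10 to 0.19 on 210881_s_at, whose difference ran from -0.31 to 0.023. IGF1R (203627_at) between shRNA cells ran from -0.12 to 0.056.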
